A study of Mus musculus with 6 samples.

Results

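The collagen receptors described here are 7 genes: Itga1, Itga2, Itga10 and Itga11, which encode the collagen-binding integrin alpha chains, Ddr1 and Ddr2, which encode the discoidin domain receptors, and Mrc2, which encodes the endocytic collagen receptor Endo180. They were taken by name from a table of 25978 genes, and all 7 were among the 15783 genes tested. RNA was sequenced from sorted YFP-positive tumour cells of KPCY mice, 3 libraries of EpCAM- cells and 3 libraries of EpCAM+ cells, each group with replicates 1, 2 and 3. Both groups came from primary pancreatic tumours of C57BL/6 mice aged 5 to 7 weeks that carried Pdx1-Cre, KrasLSL-G12D, Trp53fl/fl and Rosa26LSL-YFP. Pdx1-Cre acts in the embryonic pancreas and in part of the gut, so YFP marks the descendants of pancreatic epithelium, with or without transformation. EpCAM is an adhesion protein of epithelial cells, and the comparison sets YFP-positive cells without it at the surface against those with it.

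Collagen is sensed at the cell surface by receptors of different kinds. The integrin alpha chains pair with the beta1 chain, encoded by Itgb1, and link collagen to the actin cytoskeleton. Integrin alpha1 beta1 binds the collagen of basement membranes well, alpha2 beta1 is the main collagen integrin of many epithelia and of platelets, alpha10 beta1 is best known from cartilage, and alpha11 beta1 from fibroblasts. Ddr1 and Ddr2 are receptor tyrosine kinases that collagen activates slowly and for long periods. Ddr1 is typical of epithelia and Ddr2 of mesenchymal cells. Endo180 carries bound collagen into the cell for breakdown in lysosomes.

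All 7 receptors differed between the groups, 4 higher and 3 lower in EpCAM- cells, by limma with Benjamini-Hochberg adjustment over all tested genes and a threshold of 0.05. Of all tested genes, 43.4% passed the same test, 20.3% as higher and 23.1% as lower in EpCAM- cells. No EpCAM- library overlapped the EpCAM+ range for any of the 7, and the same held for 56.3% of all tested genes. The median log2 fold change, EpCAM- minus EpCAM+, was 1.83 over the 7 and 0.0043 over all tested genes. Itga11 reached the minimum level for testing through EpCAM- cells alone, with a mean back-transformed level of 29.8 in EpCAM- cells and 7.86 in EpCAM+ cells, so its place among the tested genes is not independent of its change.

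**Figure D1:**
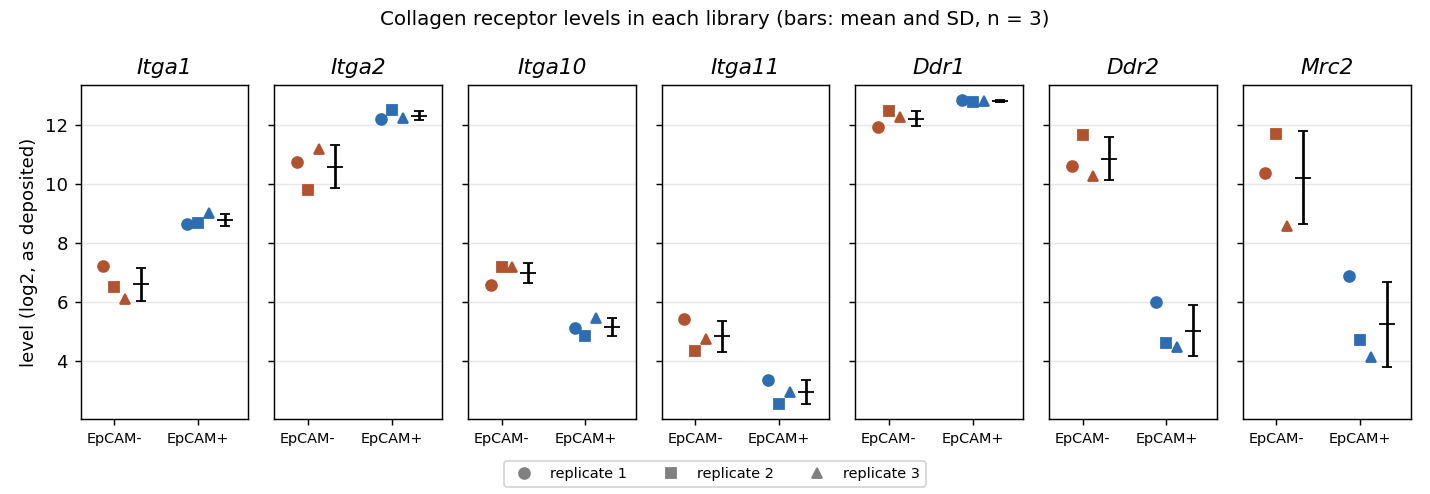
Level of each collagen receptor on the deposited log2 scale (vertical axis) in the 3 EpCAM- and the 3 EpCAM+ libraries, with symbols for the replicates and bars for the mean and SD. Ddr2 lay between 10.26 and 11.66 in EpCAM- cells and between 4.46 and 6.01 in EpCAM+ cells, and no receptor had overlapping groups.

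The sort and the genotype were checked first. Epcam had levels of 8.42, 8.22 and 7.22 in EpCAM- replicates 1 to 3, against 15.06, 14.90 and 14.89 in EpCAM+ replicates 1 to 3 on the deposited log2 scale, a log2 fold change of -7.00 (limma adjusted p = 7.43e-06). Trp53, part of which Cre deletes in both groups, did not pass (log2 fold change 0.23, limma adjusted p = 0.331), and a level for the whole gene does not check the deletion. The table holds normalised values, from which the depth of a library cannot be read. Libraries correlated across genes at 0.977 to 0.989 within a group and at 0.854 to 0.883 between groups. The series text calls the libraries biological replicates but nothing says that each came from its own animal, so the spread behind the p-values is that of these libraries and may be partly technical. In RNA from pools of cells, fewer cells of a type and less RNA per cell cannot be told apart.

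The discoidin receptors moved in opposite directions. Ddr2 (ENSMUSG00000026674, GRCm38 chr1:169972307-170110762, minus strand) had log2 levels of 10.61, 11.66 and 10.26 in EpCAM- replicates 1 to 3, against 6.01, 4.60 and 4.46 in EpCAM+ replicates 1 to 3. The lowest EpCAM- library stood far above the highest EpCAM+ library. The means were 10.85 ± 0.73 in EpCAM- cells and 5.02 ± 0.86 in EpCAM+ cells (SD, n = 3 each). Ddr2 thus rose by 5.82 ± 0.51 (SE) on the log2 scale, a 56.6-fold higher level (95% confidence interval 4.62 to 7.02 on the log2 scale, limma adjusted p = 0.000145), the 7th largest rise of the 15783 tested genes.

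Ddr1 (ENSMUSG00000003534, chr17:35681567-35704621, minus strand) had log2 levels of 11.93, 12.45 and 12.25 in EpCAM- replicates 1 to 3, against 12.84, 12.78 and 12.79 in EpCAM+ replicates 1 to 3. The EpCAM+ libraries were almost alike, and the highest EpCAM- library lay 0.33 below the lowest of them. Ddr1 averaged 12.21 ± 0.26 in EpCAM- cells and 12.80 ± 0.029 in EpCAM+ cells (SD, n = 3 each). The log2 fold change was -0.59 ± 0.15 (SE), 1.51-fold lower in EpCAM- cells (95% confidence interval -0.94 to -0.25, limma adjusted p = 0.0149). The call rested on few libraries: the limma adjusted p was 0.0506 without EpCAM+ replicate 1 and 0.0501 without EpCAM+ replicate 3, with log2 fold changes of -0.58 and -0.60.

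The balance of the pair was therefore read within each library, where scaling between libraries cancels. The log2 ratio of Ddr2 to Ddr1 was -1.32, -0.79 and -1.99 in EpCAM- replicates 1 to 3, against -6.83, -8.19 and -8.33 in EpCAM+ replicates 1 to 3. The groups did not overlap, as was so for the level of each of the pair. The means were -1.36 ± 0.60 in EpCAM- cells and -7.78 ± 0.83 in EpCAM+ cells (SD, n = 3 each). The difference was 6.42 (two-sided exact permutation test over libraries, p = 0.1, the smallest that 3 against 3 can give). It stayed between 6.13 and 6.90 when any 1 library was left out. Per kilobase of merged exon, Ddr2 made up 17.2%, 23.0% and 11.5% of the sum of both discoidin receptors in EpCAM- replicates 1 to 3, against 0.452%, 0.177% and 0.16% in EpCAM+ replicates 1 to 3. Ddr1 was the larger component of the pair in all 6 libraries. Such shares take back-transformed values as proportional to reads, which is not known for the deposited values.

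The promoters of the pair are shown because their transcripts moved in opposite directions. They are the windows from 250 bases before to 50 bases after the start sites in RefSeq (GRCm38.p6), printed 5′ to 3′ on the strand of the gene. Ddr2 has 1 window in that table and Ddr1 has 4, of which the 3rd and the 4th are printed because they hold the most motif matches, so they do not stand for all Ddr1 starts. Windows were searched for the E-box letters CAGGTG or CACCTG, which Snail and Zeb repressors of epithelial genes can bind, the AP-1 letters TGANTCA, and the GC box letters GGGCGG or CCGCCC. Capitals mark the matches.
Ddr2, chr1:170088895-170089194, minus strand: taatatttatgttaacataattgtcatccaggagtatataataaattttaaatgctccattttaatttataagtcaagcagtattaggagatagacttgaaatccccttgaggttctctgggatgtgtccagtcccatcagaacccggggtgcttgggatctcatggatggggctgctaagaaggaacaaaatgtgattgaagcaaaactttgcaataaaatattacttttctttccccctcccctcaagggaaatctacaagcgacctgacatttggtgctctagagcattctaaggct
Ddr1 3rd start, chr17:35701995-35702294, minus strand: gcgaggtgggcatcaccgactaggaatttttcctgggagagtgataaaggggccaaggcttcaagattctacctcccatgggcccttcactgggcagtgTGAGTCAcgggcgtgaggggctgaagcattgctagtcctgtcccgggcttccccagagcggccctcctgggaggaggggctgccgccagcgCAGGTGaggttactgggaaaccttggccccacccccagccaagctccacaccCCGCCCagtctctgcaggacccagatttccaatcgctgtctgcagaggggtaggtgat
Ddr1 4th start, chr17:35700541-35700840, minus strand: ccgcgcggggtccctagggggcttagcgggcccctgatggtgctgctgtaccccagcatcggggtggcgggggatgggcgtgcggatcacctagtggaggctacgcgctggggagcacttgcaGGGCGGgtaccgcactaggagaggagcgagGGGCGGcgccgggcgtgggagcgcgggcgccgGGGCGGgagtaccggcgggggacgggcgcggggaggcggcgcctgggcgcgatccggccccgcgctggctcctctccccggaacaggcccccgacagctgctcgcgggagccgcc
The Ddr2 window had 39.0% G or C and a ratio of observed to expected CpG of 0.175, and none of the motifs occurred in it. The 3rd Ddr1 window had 62.0% G or C and held an E-box 60 bases, an AP-1 match 151 bases and a GC box 8 bases before the start. The 4th had 77.7% G or C, an observed to expected CpG of 0.896 and GC boxes starting 127, 97 and 65 bases before the start. The 1st Ddr1 window had 55.7% G or C, an observed to expected CpG of 0.388 and 1 GC box, and the 2nd had 57.3%, 0.289 and, like the Ddr2 window, none of the motifs. Over all 32851 windows in the table the median was 52.7% for G or C and 0.384 for CpG. The E-box was present in 20.2% of all windows, the AP-1 match in 7.81% and the GC box in 35.7%. Gene levels do not show which Ddr1 start was used, and the Ddr2 start in RefSeq lies inside the gene span given above, which is that of GENCODE.

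Mrc2 (ENSMUSG00000020695, chr11:105292643-105351139, plus strand) rose with Ddr2 and with a wider spread. Its log2 levels were 10.38, 11.68 and 8.55 in EpCAM- replicates 1 to 3, against 6.87, 4.70 and 4.13 in EpCAM+ replicates 1 to 3. EpCAM- replicate 3 was the lowest of its group and EpCAM+ replicate 1 the highest of its group, and the groups did not overlap. Mrc2 averaged 10.20 ± 1.57 in EpCAM- cells and 5.23 ± 1.45 in EpCAM+ cells (SD, n = 3 each). The log2 fold change was 4.97 ± 0.94 (SE), with a 95% confidence interval of 2.74 to 7.20 and a limma adjusted p of 0.00514. Those 2 libraries were also left out together, because earlier results of these data had shown fibroblast markers apart in them. The log2 fold change was then 6.61 for Mrc2 (limma adjusted p = 0.000542) and 6.61 for Ddr2 (limma adjusted p = 0.000308). For both genes these libraries lay nearest the other group, so leaving them out could only enlarge the change.

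Fibroblast markers moved with Ddr2 and Mrc2. Of 11 tested fibroblast markers 7 were higher and 1 was lower in EpCAM- cells. Thus 63.6% were called as higher, beside 20.3% of all tested genes, and 72.7% were called in either direction, beside 43.4%. The lower one was Col14a1 (limma adjusted p = 0.0429), a call that was lost without EpCAM- replicate 2 or any EpCAM+ library. The summed back-transformed level of the 12 listed markers was 11440 to 21550 in EpCAM- cells and 5438 to 7622 in EpCAM+ cells. Gsn, which did not pass, made up 22.9% to 63.7% of the sum of the tested markers in EpCAM- cells and 76.5% to 84.9% in EpCAM+ cells. The defining marker Pdgfra had log2 levels of 9.19, 9.60 and 8.61 in EpCAM- replicates 1 to 3, against 6.82, 4.65 and 5.49 in EpCAM+ replicates 1 to 3. No detection limit is known, so these levels do not show whether Pdgfra was present in EpCAM+ cells. The 12 listed markers averaged 8.85, 8.76 and 7.21 on the log2 scale in EpCAM- replicates 1 to 3, against 6.87, 5.14 and 5.47 in EpCAM+ replicates 1 to 3. As for Mrc2, EpCAM- replicate 3 was the lowest of its group and EpCAM+ replicate 1 the highest of its group. In EpCAM- cells the highest library depended on the summary used. The mean of the markers was highest in EpCAM- replicate 1 (8.85, beside 8.76 in replicate 2). Their summed level was highest in EpCAM- replicate 2 (21550, beside 19300 in replicate 1), where Ddr2 and Mrc2 were highest too. In EpCAM+ cells the markers were lowest in replicate 2, and Ddr2 and Mrc2 in replicate 3. The part of the fibroblast markers in the rise of Ddr2 and Mrc2 was not tested.

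**Figure D2:**
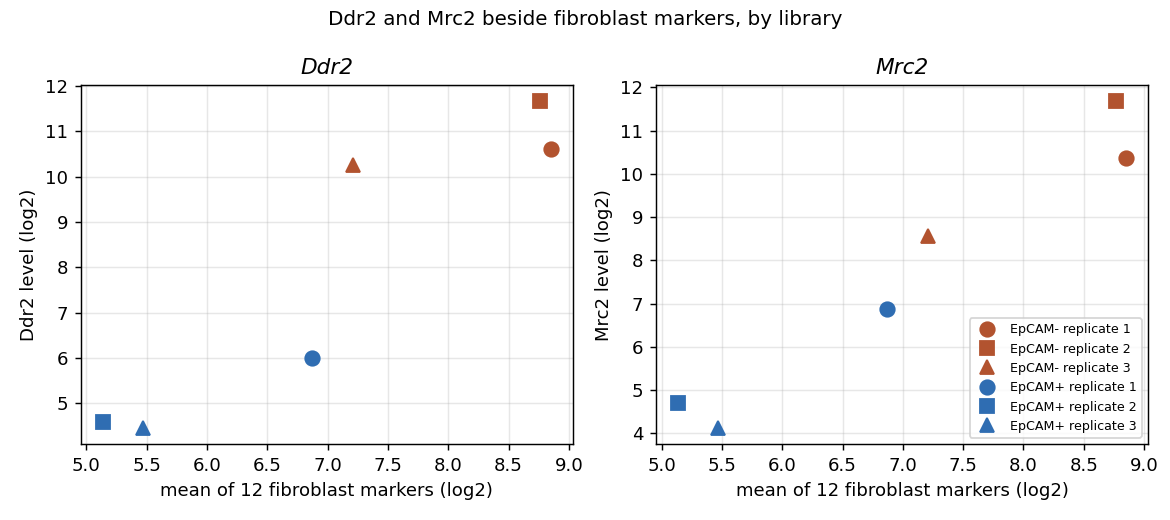
Level of Ddr2 (left panel) and Mrc2 (right panel) on the vertical axis against the mean level of the 12 listed fibroblast markers on the horizontal axis, both on the deposited log2 scale, with 1 point per library coloured by group and shaped by replicate. EpCAM+ replicate 1 had the highest level of its group for Ddr2 (6.01), Mrc2 (6.87) and the markers (6.87), and EpCAM- replicate 3 the lowest of its group for Ddr2 (10.26), Mrc2 (8.55) and the markers (7.21). For the markers the highest EpCAM- library by this mean was replicate 1 (8.85, beside 8.76 in replicate 2). For Ddr2 and Mrc2 it was replicate 2, as for the summed level of the markers. The lowest EpCAM+ library was replicate 2 for the markers and replicate 3 for Ddr2 and Mrc2.

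The integrin alpha chains split into a pair that fell and a pair that rose. Itga1 (ENSMUSG00000042284, chr13:114953096-115101964, minus strand) had log2 levels of 7.20, 6.49 and 6.10 in EpCAM- replicates 1 to 3, against 8.63, 8.67 and 9.02 in EpCAM+ replicates 1 to 3. All EpCAM- libraries were below all EpCAM+ libraries. It averaged 6.60 ± 0.56 in EpCAM- cells and 8.77 ± 0.22 in EpCAM+ cells (SD, n = 3 each), a log2 fold change of -2.18 ± 0.29 (SE) or a 4.52-fold lower level (95% confidence interval -2.87 to -1.49, limma adjusted p = 0.00108).

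Itga2 (ENSMUSG00000015533, chr13:114833081-114932100, minus strand) lies 20995 bases from Itga1 on the same strand. Its log2 levels were 10.76, 9.79 and 11.19 in EpCAM- replicates 1 to 3, against 12.21, 12.49 and 12.23 in EpCAM+ replicates 1 to 3. The EpCAM- libraries were lower without exception and more spread out, with replicate 2 the lowest. It averaged 10.58 ± 0.72 in EpCAM- cells and 12.31 ± 0.15 in EpCAM+ cells (SD, n = 3 each), and fell by 1.73 on the log2 scale (SE 0.33, 95% confidence interval -2.51 to -0.94, limma adjusted p = 0.00537).

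Itga10 (ENSMUSG00000090210, chr3:96645584-96664519, plus strand) had log2 levels of 6.57, 7.19 and 7.18 in EpCAM- replicates 1 to 3, against 5.13, 4.85 and 5.45 in EpCAM+ replicates 1 to 3. All EpCAM- libraries were above all EpCAM+ libraries. It averaged 6.98 ± 0.35 in EpCAM- cells and 5.14 ± 0.30 in EpCAM+ cells (SD, n = 3 each), a log2 fold change of 1.83 ± 0.26 (SE), 3.57-fold higher (limma adjusted p = 0.00142). Itga10 shares 1739 exon bases, 33.5% of its merged exons, with the same-strand gene Gm42957, so its level is uncertain where the counting divided reads between them. Gm42957 was below the minimum level, with log2 levels of 2.65, 3.42 and 3.33 in EpCAM- replicates 1 to 3, against 2.61, 2.48 and 2.61 in EpCAM+ replicates 1 to 3.

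Itga11 (ENSMUSG00000032243, chr9:62677826-62783982, plus strand) was the least abundant of the 4 on the deposited scale in both groups. Its log2 levels were 5.40, 4.34 and 4.74 in EpCAM- replicates 1 to 3, against 3.34, 2.54 and 2.93 in EpCAM+ replicates 1 to 3. The groups stood apart. It averaged 4.83 ± 0.54 in EpCAM- cells and 2.94 ± 0.40 in EpCAM+ cells (SD, n = 3 each), a log2 fold change of 1.89 ± 0.34 (SE), 3.71-fold higher (limma adjusted p = 0.00421). Its RefSeq promoter window is shown because it is the only one of the 4 integrin windows with an E-box.
Itga11, chr9:62677605-62677904, plus strand: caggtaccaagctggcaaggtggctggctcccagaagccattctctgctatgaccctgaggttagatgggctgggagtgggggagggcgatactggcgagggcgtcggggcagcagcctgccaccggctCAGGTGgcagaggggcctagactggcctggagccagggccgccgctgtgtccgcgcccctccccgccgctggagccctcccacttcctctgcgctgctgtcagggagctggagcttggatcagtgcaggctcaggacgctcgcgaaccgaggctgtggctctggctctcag
The E-box, in capitals, starts 121 bases before the start site, and the window had 68.0% G or C. The windows of Itga1 and Itga10 held none of the 3 motifs, and that of Itga2 held a GC box 3 bases after the start.

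Some members overlap other genes, and the labels do not say whether reads were counted by strand. Ddr2 shares 90 exon bases with the antisense gene 3110045C21Rik, which was itself higher in EpCAM- cells (log2 fold change 0.89, limma adjusted p = 0.009), and Ddr1 shares 216 with the antisense gene Gm4577. Itga1 shares 685 with Gm49395.

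**Figure D3:**
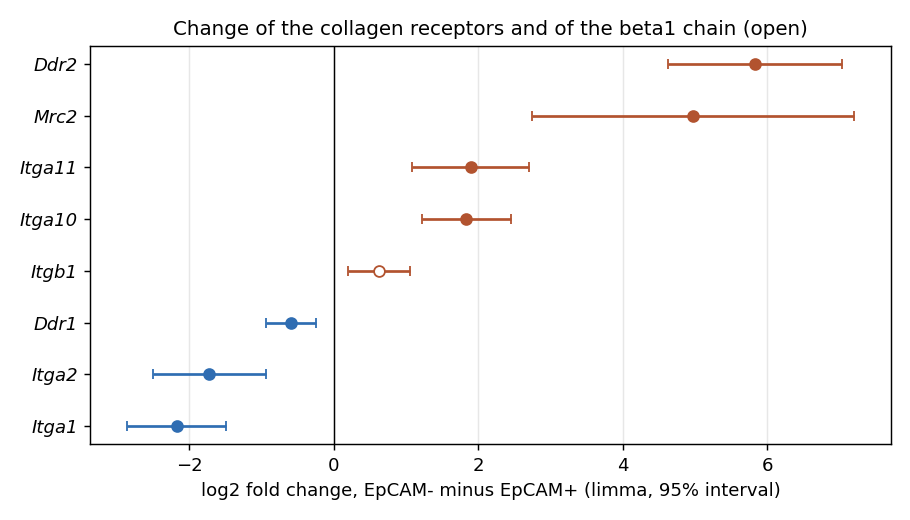
Log2 fold change of each receptor and of Itgb1 (open circle), EpCAM- minus EpCAM+ (horizontal axis), with the 95% confidence interval from limma. Ddr2 (5.82), Mrc2 (4.97), Itga11 (1.89) and Itga10 (1.83) lie above 0, and Ddr1 (-0.59), Itga2 (-1.73) and Itga1 (-2.18) lie below 0.

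The common partner of the integrin chains changed little by comparison. Itgb1 had log2 levels of 15.75, 15.59 and 15.68 in EpCAM- replicates 1 to 3, against 15.11, 15.24 and 14.80 in EpCAM+ replicates 1 to 3. Its log2 fold change was 0.63 ± 0.18 (SE, limma adjusted p = 0.0303), and the adjusted p was between 0.0514 and 0.109 without EpCAM- replicate 2, EpCAM- replicate 3, EpCAM+ replicate 1 or EpCAM+ replicate 3. Within a library, the log2 ratio of Itga1 to Itgb1 was -8.55, -9.10 and -9.58 in EpCAM- replicates 1 to 3, against -6.48, -6.57 and -5.77 in EpCAM+ replicates 1 to 3, a difference of -2.80. The ratio of Itga2 to Itgb1 differed by -2.35, that of Itga10 by 1.21 and that of Itga11 by 1.27. None of these ratios overlapped between groups, as was so for the levels of these genes and of 56.3% of all tested genes. A share over all pairs of genes was not computed. With each ratio of another member to Ddr1, 10 ratios were computed in this way, and the exact permutation p was 0.1 for each, as was the Benjamini-Hochberg adjusted p.

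Levels of different genes can be compared only per length, and were divided by merged exon length. These levels, and the shares drawn from them, again take back-transformed values as proportional to reads, which is not known. In EpCAM- cells the order of the mean log2 level per kilobase was Ddr1 (9.95 ± 0.26), Itga2 (7.75 ± 0.72), Ddr2 (7.63 ± 0.73), Mrc2 (7.47 ± 1.57), Itga10 (4.60 ± 0.35), Itga11 (2.47 ± 0.54) and Itga1 (2.38 ± 0.56; SD, n = 3 each). The ranges of Itga2, Ddr2 and Mrc2 overlapped, as did those of Itga11 and Itga1. The order of these last 2 depends on the length used: per kilobase of the longest coding transcript, Itga1 (3.14 ± 0.56) was above Itga11 (2.52 ± 0.54; SD, n = 3 each) in EpCAM- cells. In EpCAM+ cells the order was Ddr1 (10.55 ± 0.029), Itga2 (9.47 ± 0.15), Itga1 (4.56 ± 0.22), Itga10 (2.77 ± 0.30), Mrc2 (2.5 ± 1.45), Ddr2 (1.81 ± 0.86) and Itga11 (0.58 ± 0.40; SD, n = 3 each), where Mrc2 overlapped both of its neighbours. Ddr1 was thus first and Itga2 second by the mean in both groups.

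Among the 4 alpha chains, Itga2 held 87.5%, 77.1% and 89.9% of the summed level per kilobase in EpCAM- replicates 1 to 3, against 95.7%, 96.6% and 94.7% in EpCAM+ replicates 1 to 3. Itga10 held 6.62%, 17.4% and 7.63% in EpCAM- replicates 1 to 3, against 0.968%, 0.669% and 1.19% in EpCAM+ replicates 1 to 3. Itga11 held 2.98%, 2.45% and 1.42% in EpCAM- replicates 1 to 3, against 0.284%, 0.136% and 0.21% in EpCAM+ replicates 1 to 3. Itga2 was the main alpha chain in every library, with lower shares in EpCAM- cells, and Itga10 and Itga11 had higher shares there. Itga1 held 2.85%, 3.00% and 1.01% in EpCAM- replicates 1 to 3, against 3.07%, 2.62% and 3.94% in EpCAM+ replicates 1 to 3, so its shares overlapped between the groups although its level did not.

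**Figure D4:**
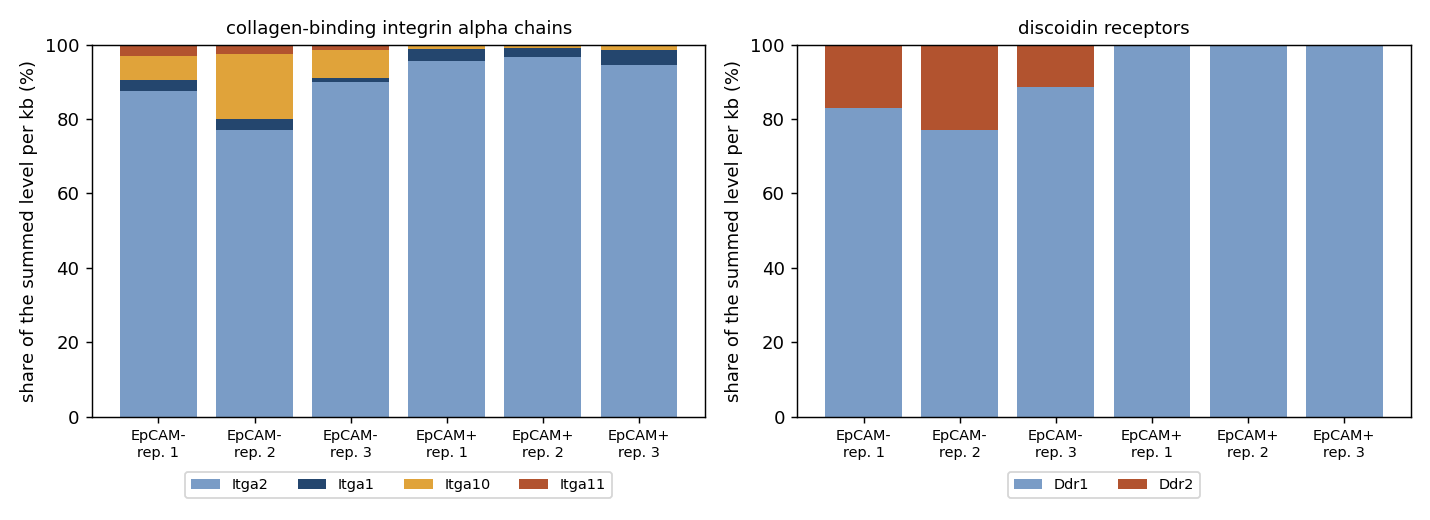
Share of each integrin alpha chain in the summed level per kilobase of the 4 chains, and of Ddr1 and Ddr2 in the sum of both, in percent for each library, EpCAM- libraries left. Itga2 fills 77.1% to 89.9% of the alpha chain bars in EpCAM- cells and 94.7% to 96.6% in EpCAM+ cells.

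Of Itgb1 and its other alpha partners, 9 tested genes, 4 rose, 0 fell and 5 did not pass, so 44.4% were called, near the 43.4% of all tested genes, with a median log2 fold change of 0.63. The fibronectin receptor chain Itga5 rose by 1.73 ± 0.13 (SE, limma adjusted p = 7.18e-05), and Itgav by 0.60 ± 0.12 (SE, limma adjusted p = 0.00729). The laminin receptor chain Itga7 rose by 0.96 ± 0.32 (SE, limma adjusted p = 0.0445), a call lost without any single library except EpCAM- replicate 3, with the replicate block (limma adjusted p = 0.0597), with array weights, with no filter and with no variance trend. The laminin receptor chains Itga3 (log2 fold change -0.74, limma adjusted p = 0.117) and Itga6 (0.16) did not pass. The count that rose was 2 without EpCAM- replicate 2, EpCAM+ replicate 1 or EpCAM+ replicate 3.

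Collagen genes were largely higher in EpCAM- cells. Of 23 tested collagen chains 14 rose, 2 fell and 7 did not pass, so 69.6% were called beside 43.4% of all tested genes, with a median log2 fold change of 2.69. Col3a1, a fibrillar collagen, rose by 5.61 ± 0.99 (SE, limma adjusted p = 0.00388), Col5a1 by 5.19 ± 0.64 (SE, limma adjusted p = 0.000706) and Col11a1 by 4.94 ± 0.51 (SE, limma adjusted p = 0.000312). Col1a2, a chain of type I collagen, rose by 4.65 ± 1.09 (SE, limma adjusted p = 0.0128, and 0.0518 without EpCAM+ replicate 3). Col2a1 rose by 4.62 and Col10a1 by 2.69 (limma adjusted p = 0.00125 and 0.034). Col9a3 and Col11a2 fell by 2.99 and 2.86 on the log2 scale (limma adjusted p = 0.00169 and 0.00054). The fibroblast markers given above moved with these genes too, and their part was not tested.

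Genes on a list of other collagen-binding receptors went both ways, and collagen binding by each of the proteins was not checked. Of 11 tested genes 4 rose, 3 fell and 4 did not pass, so 63.6% were called beside 43.4% of all tested genes, with a median log2 fold change of -0.10. Those that rose were Pla2r1 (2.79 ± 0.21), Cspg4 (2.53 ± 0.34), Ly75 (1.52 ± 0.21) and Adgrg6 (0.87 ± 0.21; SE), with limma adjusted p-values of 6.76e-05, 0.00105, 0.00124 and 0.0156 in that order. Cspg4, a proteoglycan, is also on the list of pericyte markers. Pla2r1, Ly75 and Mrc2 belong to the mannose receptor family, and their family member Mrc1 did not pass (-0.099, limma adjusted p = 0.915). The syndecan Sdc1 fell by 0.80 on the log2 scale (limma adjusted p = 0.0092), the adhesion receptor Adgrg1 by 0.85 (limma adjusted p = 0.00273) and the leukocyte receptor Lair1 by 1.02 (limma adjusted p = 0.0407). Lair1 reached the minimum level through EpCAM+ cells alone, with a mean back-transformed level of 7.98 in EpCAM- cells and 17.0 in EpCAM+ cells. Leukocyte markers moved with Lair1, as 10 of 11 were lower in EpCAM- cells (90.9%, beside 23.1% of all tested genes). Their summed level was 673 to 919 in EpCAM- cells and 4438 to 10340 in EpCAM+ cells. Cd14 made up 26.8% to 44.2% of the sum in EpCAM- cells and 41.0% to 69.5% in EpCAM+ cells. Without Cd14 the sums were 375.6 to 672.5 in EpCAM- cells and 1353 to 6105 in EpCAM+ cells. The part of these markers in the fall of Lair1 was not tested. The count of leukocyte markers that fell was 6 without EpCAM- replicate 3 or EpCAM+ replicate 3. Lair1 lost its call without any single library except EpCAM+ replicate 2, and the count that fell was 2 in those cases and 5 without EpCAM+ replicate 2.

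Of 21 tested genes of the integrin adhesion machinery, 6 rose, 3 fell and 12 did not pass. Thus 42.9% were called, near the 43.4% of all tested genes, and the median log2 fold change was 0.32. The kindlins, which activate integrins, split. Fermt2 had log2 levels of 11.96, 12.37 and 12.02 in EpCAM- replicates 1 to 3, against 10.38, 10.50 and 10.19 in EpCAM+ replicates 1 to 3, a rise of 1.76 ± 0.14 (SE, limma adjusted p = 0.000108). Fermt1, the kindlin of epithelia, had 9.45, 8.86 and 7.56 in EpCAM- replicates 1 to 3, against 12.61, 12.44 and 12.50 in EpCAM+ replicates 1 to 3, and fell by 3.89 (limma adjusted p = 0.000444). Neither pair of groups overlapped. Parvb, which binds the integrin-linked kinase, rose by 2.85 ± 0.28 (SE, limma adjusted p = 0.000244) and Itgb1bp1, which binds the tail of beta1, by 1.21 ± 0.13 (SE, limma adjusted p = 0.00035). The smaller falls, Lims2 (-0.83, limma adjusted p = 0.0263) and Sharpin (-0.39, limma adjusted p = 0.0456), were not stable, and the count that fell was 1 or 5 under 8 of the alternatives. Lims2 reached the minimum level through EpCAM+ cells alone, with a mean back-transformed level of 8.37 in EpCAM- cells and 14.7 in EpCAM+ cells.

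Among signalling partners of the discoidin receptors, 7 of 14 tested genes rose, 0 fell and 7 did not pass, beside 43.4% of all tested genes called and 20.3% called as higher, with a median log2 fold change of 0.20. The kinase Fyn rose by 1.44 ± 0.27 (SE, limma adjusted p = 0.00506), and the adaptor Shc1, which binds activated receptors, by 0.55 ± 0.12 (SE, limma adjusted p = 0.00945). The myosin Myh9, which associates with Ddr1, rose by 0.83 ± 0.22 (SE, limma adjusted p = 0.0216) and the tetraspanin-like Tm4sf1 by 1.15 ± 0.34 (SE, limma adjusted p = 0.0328). The last 2 lost their calls without EpCAM- replicate 3, EpCAM+ replicate 1 or EpCAM+ replicate 3, and the count that rose was then 2 or 3.

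Of 15 tested genes of collagen uptake and breakdown 6 rose, 1 fell and 8 did not pass, so 46.7% were called, near the 43.4% of all tested genes, with a median log2 fold change of 0.50. The gelatinase Mmp2 had log2 levels of 13.10, 13.73 and 11.76 in EpCAM- replicates 1 to 3, against 9.39, 6.11 and 6.44 in EpCAM+ replicates 1 to 3. The groups did not overlap, and EpCAM- replicate 3 was the lowest and EpCAM+ replicate 1 the highest of its group, as for the fibroblast markers, whose part was not tested. Mmp2 rose by 5.55 ± 0.91 (SE, limma adjusted p = 0.00273), and by 7.14 without those 2 libraries, whose removal could only enlarge the change. Timp2, an inhibitor that also takes part in Mmp2 activation, rose by 2.20 ± 0.23 (SE, limma adjusted p = 0.000308). The lysosomal protease Lgmn rose by 0.89 ± 0.15 (SE, limma adjusted p = 0.00332) and the membrane protease Mmp14 by 0.52 (limma adjusted p = 0.0264). Plaur, the urokinase receptor, which associates with Endo180, moved opposite to Mrc2. Its log2 levels were 12.30, 11.94 and 12.13 in EpCAM- replicates 1 to 3, against 13.66, 13.50 and 13.17 in EpCAM+ replicates 1 to 3, and it fell by 1.32 (limma adjusted p = 0.000724).

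**Figure D5:**
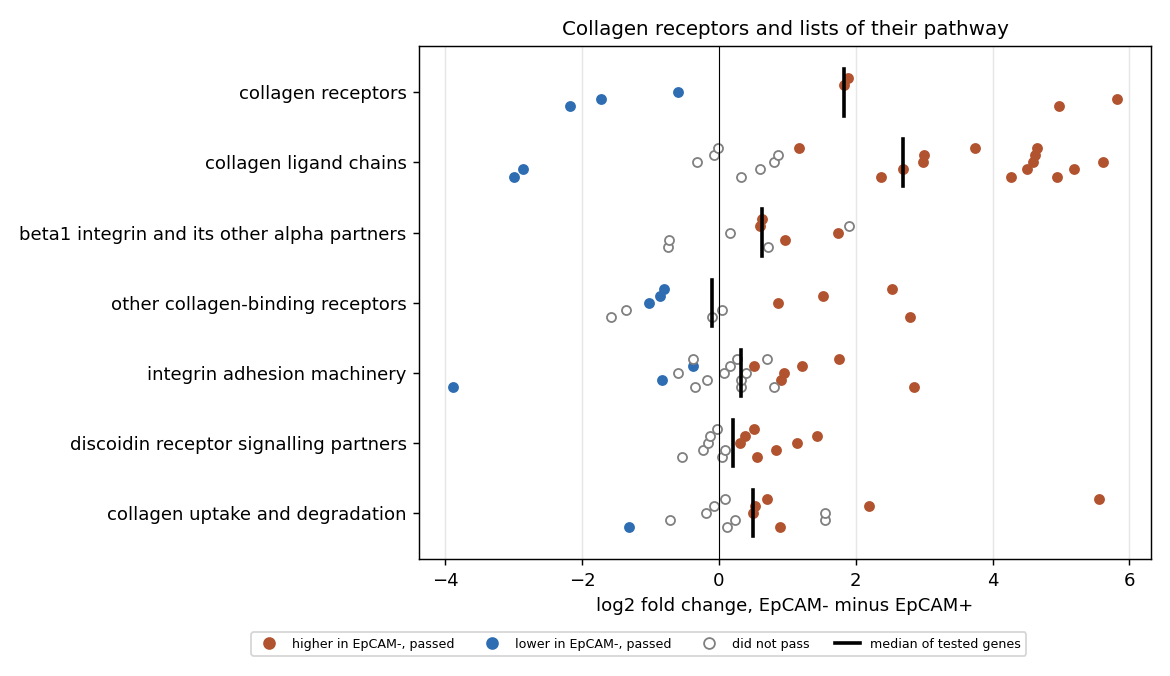
Log2 fold change, EpCAM- minus EpCAM+ (horizontal axis), of the 7 collagen receptors and of the tested genes of each list, with a bar for the median. The medians run from -0.10 for other collagen-binding receptors to 2.69 for collagen chains, beside 1.83 for the 7 receptors.

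Markers of other cells were read beside these results. Of all tested genes 43.4% were called, 20.3% as higher and 23.1% as lower in EpCAM- cells. All 12 acinar markers (100%) were lower in EpCAM- cells, with a summed level of 562 to 731 in EpCAM- cells and 60220 to 120500 in EpCAM+ cells. Of 12 epithelial and duct markers 11 fell (91.7%) and 1, Sox9, rose (8.33%). Of 11 pericyte and smooth muscle markers 2 rose and 2 fell, so 36.4% were called, with a median log2 fold change of 1.23. Their summed level was 2768 to 4425 in EpCAM- cells and 2686 to 4705 in EpCAM+ cells. Rgs5, which fell, made up 10.5% to 50.3% of the sum of the tested markers in EpCAM- cells. In EpCAM+ cells it made up 49.7% to 69.0%. Without Rgs5 the sums were 1373 to 3823 in EpCAM- cells and 959 to 1696 in EpCAM+ cells, and these ranges overlapped. Of 4 platelet markers 1 rose and 1 fell, with a summed level of 1243 to 1905 in EpCAM- cells and 1221 to 1952 in EpCAM+ cells. Of 6 tested endothelial markers 2 rose and 1 fell, with a summed level of 4245 to 9578 in EpCAM- cells and 1279 to 2306 in EpCAM+ cells. The gene Flt1 alone made up 95.1% to 98.0% of the sum in EpCAM- cells and 89.1% to 93.3% in EpCAM+ cells, and Pecam1 and Cdh5 did not pass. Of 2 tested T and NK cell markers 1 rose, and Cd3e and Cd3g were too low to be tested. Several of these small counts rested on single libraries: Sox9 did not pass, and the endothelial count that rose was 1, on leaving out replicate 2 or 3 of EpCAM- cells, or 1 or 3 of EpCAM+ cells. The pericyte count that fell was 0 without EpCAM+ replicate 3 and 1 without any other library. Without EpCAM+ replicate 1 the platelet count that fell was 2. Of the markers called as changed, 2 fibroblast, 1 platelet and 4 acinar markers reached the minimum level through the group where they were high. The part of these cells in the changes of the collagen receptors was not tested.

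Genes with the most similar profiles were found by the smallest root mean square difference of log2 levels over the 6 libraries, each gene centred on its own mean. For Ddr2 these were Thbs2 (0.444), Gap43 (0.46) and Colec12 (0.485). For Mrc2 they were Dcn (0.391), Serpinf1 (0.496) and Pdgfrb (0.52), among which Dcn and Pdgfrb are also on the lists of fibroblast and pericyte markers. For Ddr1 they were Zfp959 (0.0453), Relch (0.0608) and Fam43a (0.0701). The levels were not scaled, so the difference depends on the size of a gene's change and does not rank closeness between members. The nearest profiles were Fam234b (0.105), Arrdc4 (0.108) and Kalrn (0.141) for Itga1, and Fam213a (0.157), Ttc9 (0.163) and Sox13 (0.168) for Itga2. They were Medag (0.0907), Fam219a (0.159) and D030062O11Rik (0.161) for Itga10, and Dync1i1 (0.134), Ndp (0.157) and Nexn (0.168) for Itga11. Between the receptors the difference was 0.551 for Itga10 and Itga11, 0.629 for Itga1 and Itga2, and 0.77 both for Ddr2 and Mrc2 and for Itga2 and Ddr1.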

How the data were processed

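RNA was extracted from sorted cells and sequenced after KAPA mRNA HyperPrep preparation, per the labels' protocols. The submitters' processing notes name STAR 2.5.2, RSEM, DESeq2 1.24.0 and GRCm38, with no role or order. The deposited values are log2 levels normalised by the authors; the transform and annotation are not given in the sources used here, and depth is unknown. Symbols and coordinates came from GENCODE and promoters from RefSeq by symbol, matching 6 of the 7 receptors. Genes whose back-transformed level averaged 10 or more were fitted in R 4.3.3 by limma 3.58.1 (trended prior variance, no covariate, two-sided), with Benjamini-Hochberg adjustment over 15783 genes and a threshold of 0.05. The same code was tested on simulated data. Ratios of members in a library were compared by exact permutation over libraries. Named genes were all members, Itgb1, Epcam, Trp53, the up to 4 largest called changes of each list with the few that went the other way, and the 3 nearest profiles of each member; other genes were named after their values were seen. The members and lists were chosen with earlier results of these data known. Alternatives were pseudocounts of 1 and 5, no filter, a minimum of 50, TMM, upper quartile and quantile scaling, the replicate block, array weights, no variance trend, each library left out, and a fit without both EpCAM- replicate 3 and EpCAM+ replicate 1.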

Additional observations from a re-analysis of the deposited data

How the results depend on the processing

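All 7 receptors kept their direction under every alternative that gave a value, and Ddr1 alone lost its call. Its log2 fold change ran from -0.72 to -0.45 when 1 library was left out (-0.58 without EpCAM+ replicate 1, limma adjusted p = 0.0506, and -0.60 without EpCAM+ replicate 3, limma adjusted p = 0.0501), and was -0.60 (limma adjusted p = 0.103) without both EpCAM+ replicate 1 and EpCAM- replicate 3. The number of genes called, 6850, ran from 4987 to 7300 when 1 library was left out and was 4369 without both of those libraries, where fewer samples were fitted. The pathway genes called, 50, ran from 32 to 52 when 1 library was left out, the lowest without EpCAM+ replicate 3. Of all genes called, 3197 rose and 3653 fell, against 3502 and 3511 with upper quartile scaling and 4241 and 3246 with quantile normalisation, so which direction held more genes depended on the scaling. Quantile normalisation shifted the median of all genes by 0.136; relative to it, Ddr1 was at -0.78 and Ddr2 at 5.88, and Trp53 passed (0.52 before taking off the shift, limma adjusted p = 0.0295). Itga11 was not tested at a minimum of 50. With the replicate block 7090 genes and all 7 receptors were called, and Itga7 (limma adjusted p = 0.0597) and Sharpin (0.0612) lost their calls. The numbers were not used as pairs because no label says that they pair libraries. The deviations of same-numbered libraries from their group means correlated at 0.41, 0.044 and 0.16 for replicates 1, 2 and 3. Not every library correlated best with its own number. With 3 libraries in each group, such correlations cannot decide whether libraries were paired. Under the block, 1 discoidin receptor partner and 2 uptake genes fell, against 0 and 1, no fibroblast marker fell, against 1, and 5 pericyte markers rose, against 2. With array weights or without EpCAM- replicate 1, 1 gene of the beta1 partners fell, against 0, 5 adhesion genes, against 3, and 2 uptake genes, against 1. Unknown depth limits the low levels of Itga11, and of Ddr2 and Mrc2 in EpCAM+ cells, and no detection limit can be given.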
